A study of Caenorhabditis elegans with 8 samples.

Results

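The genes described here encode cuticlins and other proteins of the apical extracellular matrix of Caenorhabditis elegans, the matrix that epithelial cells lay down on their outer or luminal face. They were chosen by their symbol in the annotation of the array: every gene named cut- or cutl- and 9 genes added by name (noah-1, noah-2, dyf-7, let-653, fbn-1, lpr-1, lpr-3, let-4 and egg-6). This gave 43 of the 17118 genes measured, made up of 6 cuticlins, 28 cuticlin-like genes and those 9. The RefSeq gene table of assembly WBcel235 holds 44 genes under these names, and the other one, cutl-23, was not analysed here. Each gene was represented by its brightest probe set with 1 symbol.

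Cuticlins are insoluble proteins of the worm's cuticle that carry a zona pellucida domain, a module that lets secreted proteins join into fibrils. Related zona pellucida proteins, together with secreted lipocalins and leucine-rich repeat proteins, form a short-lived precuticle that shapes epithelia and narrow tubes in the embryo and before each moult, and is then replaced by collagen cuticle. Adults no longer moult. Lipocalins as a family bind small lipophilic molecules.

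RNA came from whole adults of the wild-type strain N2 on day 4 of adulthood, all of them kept from young adulthood on FUDR, an inhibitor of DNA synthesis that stops progeny from developing. The 4 groups of 2 arrays were fed worms given cholesterol, fasted worms given cholesterol, fed worms deprived of cholesterol from hatching, and fasted worms deprived in the same way. The labels give the fast as 24 h in one place and as 48 h in another, so no length is assumed. The worm cannot make sterols, and the series title asks how cholesterol bears on the transcription factor DAF-16 and on fasting. Replicates are called independent, but no label says that they came from separate cultures, so p-values measure the spread between these arrays, which may be technical.

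The values are signals normalised by RMA (robust multi-array average), kept linear, and the medians of the 8 arrays ran from 66.7 to 70.9. The 2 arrays of a group correlated at 0.992 to 0.994 (Pearson's r over probe sets), and arrays from unlike groups at 0.972 to 0.992. A log2 change is a difference of group means of log2(signal + 1), given with its standard error from a limma fit over all 8 arrays, and a gene "rose" or "fell" where its p, after Benjamini-Hochberg adjustment across the 22548 probe sets tested, was under 0.05. Signals of different probe sets do not give the relative abundance of their transcripts.

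Most of the 43 genes were dim on these adult arrays. The median of the 43 mean signals was 45.8, against 70.8 for all genes, and 31 of the 43 lay below that gene median. Of the 28 cuticlin-like genes, 3 lay above it (cutl-20 at 205, cutl-26 at 112 and cutl-25 at 81.6), and their median was 29.5. The 6 cuticlins, of which cut-1 is known for the dauer cuticle and cut-3 and cut-5 for larval alae, had mean signals of 26.2 (cut-5) to 146 (cut-2). Of the 6, 3 lay above the gene median, and the median of the 6 was 62.1. Among the 9 added genes, egg-6 at 2245 and noah-1 at 502 were the brightest, and the lowest was lpr-1 at 40.8. No detection call was used, so whether the dim genes were expressed is not known, and a change in them would be understated.

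**Figure D1:**
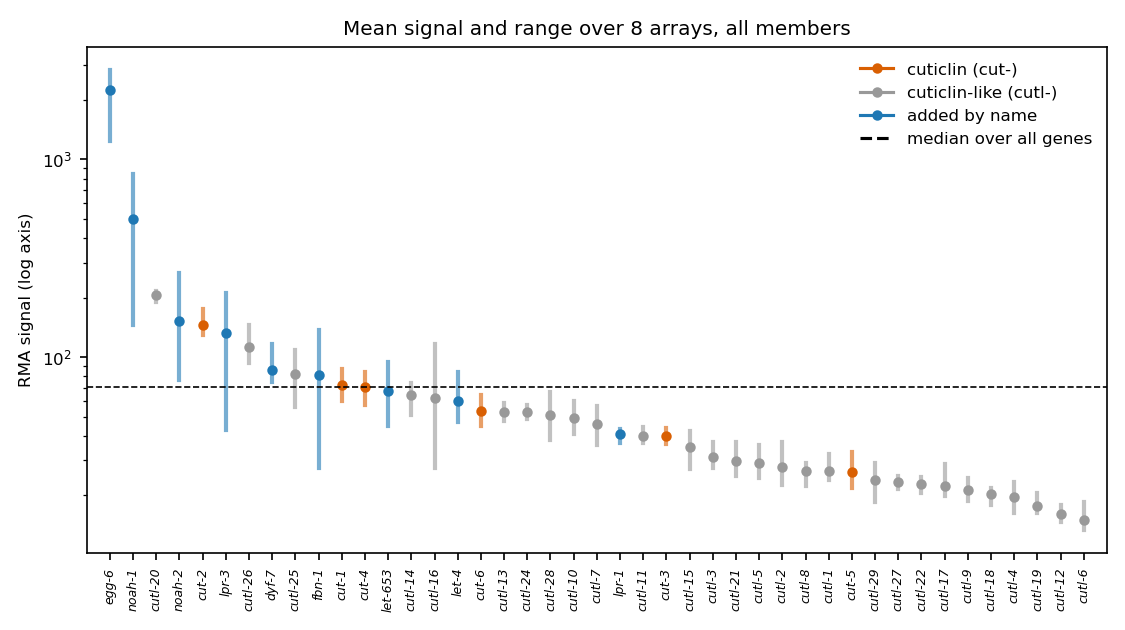
Mean RMA signal (points, log axis) and lowest to highest of the 8 arrays (lines) for the 43 genes, brightest on the left, with the median over all genes dashed. The long lines belong to noah-1 (145 to 847), noah-2 (76.1 to 267), lpr-3 (42.7 to 210), fbn-1 (27.4 to 137) and cutl-16 (27.3 to 117), while most cuticlin-like genes sit below the dashed line at 70.8 with short ranges.

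In fed worms, cholesterol deprivation lowered 4 of the 43 genes and raised none: noah-1, lpr-3, fbn-1 and noah-2. The falls were 3.03-fold to 5.32-fold. Over all genes in this comparison, 0.713% fell and 0.572% rose. The 4 genes all come from the 9 added by name, of which 5 did not pass. The members were chosen with earlier results of these data known, so differences between the added genes and the rest may follow from that choice. None of the 6 cuticlins or 28 cuticlin-like genes passed in either direction. The median change was -0.82 for the 9 added genes, 0.12 for the cuticlins and 0.05 for the cuticlin-like genes, beside a median of 0.05 for all genes.

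The zona pellucida protein noah-1, a matrix protein of the embryonic epidermis that links it to the overlying sheath, gave signals of 847 and 813 in the fed worms with cholesterol and 166 and 145 in the fed worms without it. All deprived fed arrays lay far under all undeprived ones, with no overlap. The change was -2.41 ± 0.14 (n = 2 arrays per group, adjusted p = 0.00155), a 5.32-fold difference. The second noah-1 probe set, dimmer, gave 236 and 279 with cholesterol and 105 and 97.5 without it, a change of -1.33 ± 0.16 (adjusted p = 0.0137). Both probe sets therefore fell, the brighter one by more. The noah-1 fall still passed whichever of the 8 arrays was left out.

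Its paralog noah-2, also needed for the embryonic sheath, followed with 247 and 267 against 76.1 and 93.3. The groups did not overlap, and the change was -1.60 ± 0.26 (adjusted p = 0.0379). The noah-2 call was lost without any 1 of 6 arrays, namely those of the fed worms with cholesterol, the fed worms without it and the fasted worms without it (adjusted p = 0.057 to 0.216), while its value stayed between -1.74 and -1.45 there.

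The lipocalin lpr-3, a component of the precuticle of epidermis and tubes, gave 210 and 153 with cholesterol and 45.2 and 42.7 without it in fed worms. Every deprived array was lower, at -2.01 ± 0.27 (adjusted p = 0.0216). The probe set has a name ending in _x_at, so it may pick up other transcripts. The second lpr-3 probe set, of the gene-specific kind, went from 141 and 128 to 59.6 and 51.5, at -1.26 ± 0.26, and did not pass (adjusted p = 0.0842). The lpr-3 call was lost without any 1 of 6 arrays, those of both fed groups and of the fasted worms with cholesterol (adjusted p = 0.0514 to 0.166), with values of -2.23 to -1.78. The related lipocalin lpr-1, known from the excretory duct, gave 41.1 and 42.6 against 42.8 and 41.5, at 0.01 ± 0.11.

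The fibrillin-related gene fbn-1, which encodes a large zona pellucida protein that helps embryonic tissues bear mechanical load, gave 137 and 135 with cholesterol and 46.6 and 27.4 without it. The deprived pair was lower on both arrays but also more spread out, and the change was -1.90 ± 0.25 (adjusted p = 0.0186). A second, dimmer fbn-1 probe set at 32.7 and 38.9 against 28.7 and 22.5 changed by -0.47 ± 0.16 and did not pass (adjusted p = 0.24). The fbn-1 call was lost without either fed array given cholesterol (adjusted p = 0.148 for replicate 1 and 0.0856 for replicate 2) and without the fed deprived replicate 2 (adjusted p = 0.0533).

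Next in size among the added genes was let-653, a zona pellucida glycoprotein that keeps narrow tubes such as the excretory duct open. Its signals were 94.8 and 86.2 with cholesterol and 57.2 and 44.9 without it in fed worms. The groups did not overlap, but the change of -0.82 ± 0.15 missed the threshold (adjusted p = 0.0544). The leucine-rich repeat gene let-4, which keeps epithelial junctions and the matrix intact, gave 59.9 and 64.9 against 48.1 and 47.9 (-0.37 ± 0.10, adjusted p = 0.159). The other leucine-rich repeat gene, egg-6, had 2061 and 2654 against 2423 and 2835, which overlap (0.16 ± 0.29). The dendrite anchor dyf-7, a zona pellucida protein of the nose, had 75 and 79.7 against 79.1 and 90.6, also overlapping (0.13 ± 0.18). Neither dyf-7, egg-6 nor lpr-1 passed in any of the 7 contrasts. In fasted worms with and without cholesterol, dyf-7 gave 117 and 80.6 against 85.7 and 80.2, and lpr-1 gave 43.4 and 36.6 against 40.3 and 38.2. For egg-6 the fasted signals were 1243 and 2351 against 2018 and 2375, so all 3 overlapped there as well.

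**Figure D2:**
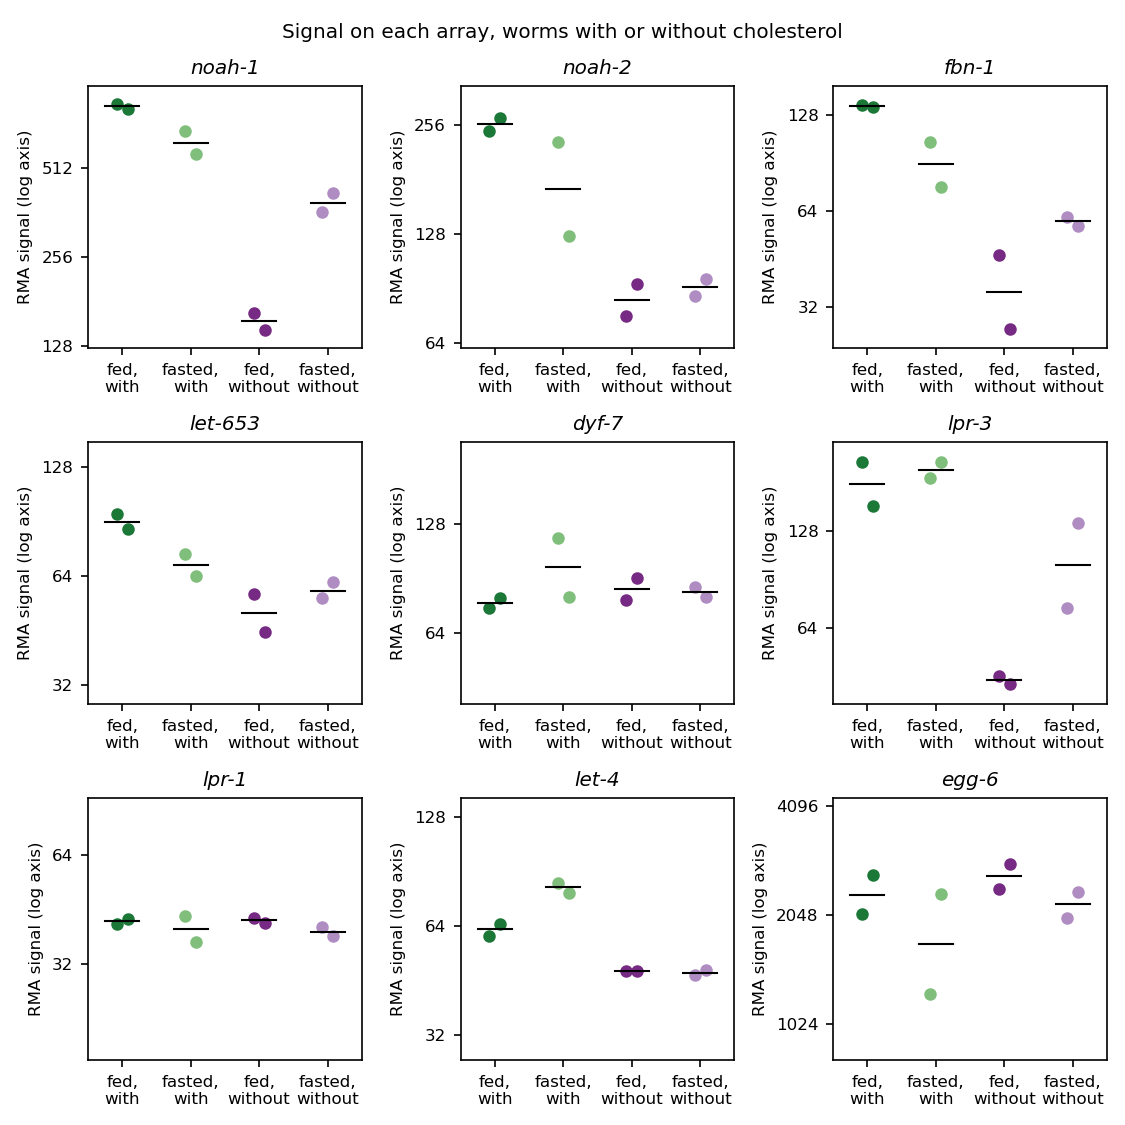
RMA signal on each of the 8 arrays (points, log2-spaced axis) and the mean of log2 values in each group (bars) for the 9 genes added by name. Points of noah-1, noah-2, fbn-1 and lpr-3 are lowest in fed worms without cholesterol or share that place with fasted worms without it, whereas for lpr-1, dyf-7 and egg-6 the worms with and without cholesterol overlap within each feeding state.

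The cuticlin-like gene cutl-8 depends on which probe set stands for it. Its 1-symbol probe set was dim, with signals of 22.3 to 29.2 over the 8 arrays. A brighter probe set, whose annotation writes the symbol cutl-8 for 2 gene numbers (1 of them in the RefSeq table), was outside the rule. That probe set gave 183 and 169 in fed worms with cholesterol and 70.3 and 73.7 without it. The change was -1.28 ± 0.16 (adjusted p = 0.0148), a fall of 2.42-fold, and counting it for cutl-8, a choice made after its values were seen, made 5 falls in place of 4. The rest of the cuticlin-like genes lay between -1.23 (cutl-16) and 0.31. The lowest of these, cutl-16, gave 62.6 and 70.7 against 28.5 and 27.3 and did not pass (-1.23 ± 0.44, adjusted p = 0.284). In the fasted groups the cutl-16 replicates were far apart, at 56.5 and 117 with cholesterol and 37.9 and 94.1 without it.

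**Figure D3:**
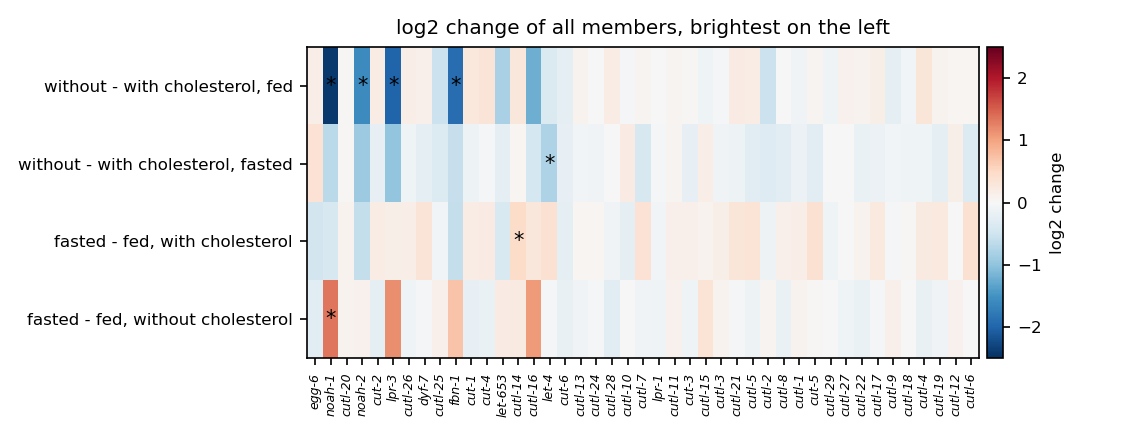
Log2 change (colour) of the 43 genes, brightest on the left, in 4 comparisons (rows), with a star where the adjusted p was under 0.05. Stars in the top row mark noah-1 (-2.41), noah-2 (-1.60), lpr-3 (-2.01) and fbn-1 (-1.90), and single stars mark let-4 (-0.77), cutl-14 (0.46) and noah-1 (1.34) in the others.

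In fasted worms, deprivation lowered 1 of the 43 genes, let-4, and raised none, beside 0.462% of all genes that fell and 0.701% that rose. The let-4 signals were 84.1 and 79.0 in fasted worms with cholesterol and 46.7 and 48.2 in those without it. The groups stood well apart, at -0.77 ± 0.10 (adjusted p = 0.0165). A second let-4 probe set, with signals of 11.1 to 19.4, changed by -0.18 ± 0.12 (adjusted p = 0.552). The let-4 call was lost without either fasted array with cholesterol (adjusted p = 0.125 for replicate 1 and 0.064 for replicate 2) and without either fasted deprived array (adjusted p = 0.104 and 0.0655). With the mean of both let-4 probe sets in place of the brighter one, the change was -0.47 and did not pass either (adjusted p = 0.104).

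The genes that fell in fed worms also had values below 0 for deprivation in fasted worms, none of them past the threshold. For noah-1 the fasted signals were 685 and 573 with cholesterol and 365 and 424 without it (-0.67 ± 0.14, adjusted p = 0.0867). For lpr-3 they were 187 and 209 against 74.0 and 135 (-0.98 ± 0.27, adjusted p = 0.197). For noah-2 they were 230 and 126 against 86.1 and 96.4 (-0.90 ± 0.26, adjusted p = 0.208). For fbn-1 they were 105 and 76.0 against 61.3 and 57.6 (-0.58 ± 0.25, adjusted p = 0.354). The bright cutl-8 probe set outside the rule gave 165 and 182 against 98.2 and 134 (-0.59 ± 0.16, adjusted p = 0.172). In all, 33 of the 43 genes had a change below 0 in fasted worms, with a median of -0.14, where 59.6% of all genes were below 0 with a median of -0.05.

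Averaged over both feeding states, 4 arrays against 4, deprivation lowered 7 of the 43 genes and raised none, where 2.13% of all genes fell and 2.25% rose. This average uses the same arrays as both comparisons above. The zona pellucida genes noah-1 (-1.54 ± 0.10, adjusted p = 0.000978), noah-2 (-1.25 ± 0.18, adjusted p = 0.0147) and fbn-1 (-1.24 ± 0.17, adjusted p = 0.0129) fell, as did the lipocalin lpr-3 (-1.49 ± 0.19, adjusted p = 0.00947). The other falls were those of let-4 (-0.57 ± 0.07, adjusted p = 0.00811), let-653 (-0.53 ± 0.10, adjusted p = 0.0389) and cutl-2 (-0.43 ± 0.09, adjusted p = 0.0465). The averaged let-653 fall drew more on fed worms, since its fasted signals were 73.6 and 64.2 with cholesterol and 55.5 and 61.7 without it. The second probe sets of noah-1 (-1.12 ± 0.11, adjusted p = 0.00358) and lpr-3 (-1.11 ± 0.19, adjusted p = 0.0229) also fell on average, while those of fbn-1 (-0.45 ± 0.11, adjusted p = 0.0753) and let-4 (-0.38 ± 0.09, adjusted p = 0.0645) did not pass. The bright cutl-8 probe set outside the rule also fell on average (-0.93 ± 0.11, adjusted p = 0.00681), and counting it made 8 falls in place of 7. Under the rule, 6 of the 9 added genes, 1 of 28 cuticlin-like genes and 0 of 6 cuticlins fell on average. This split, too, may follow from choosing the members with earlier results known. The dim cutl-2, whose only probe set also ends in _s_at, had signals of 30.1, 37, 31.6 and 29.2 on the arrays with cholesterol. On those without it they were 23.3, 22.4, 25.1 and 22.9. The calls of noah-1, let-4 and lpr-3 held without each array in turn. That of cutl-2 was lost without any 1 of the 8 arrays (adjusted p = 0.0642 to 0.154), that of let-653 without any 1 of 7, all but the fed deprived replicate 1 (adjusted p = 0.0613 to 0.143). That of noah-2 was lost without either fed array with cholesterol or replicate 1 of either deprived group (adjusted p = 0.0503 to 0.0626). That of fbn-1 was lost without replicate 1 of either group given cholesterol (adjusted p = 0.0524 and 0.0612).

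With cholesterol present, fasting raised 1 of the 43 genes, cutl-14, and lowered none, where 2.18% of all genes rose and 3.24% fell. The cuticlin-like gene cutl-14 gave 51.5 and 50.8 in fed worms and 73.8 and 67.4 in fasted worms. Both fasted arrays were higher, by 0.46 ± 0.10 (adjusted p = 0.0481, 1.37-fold), just past the threshold. Without cholesterol the cutl-14 signals were 64.1 and 60.6 fed and 74.2 and 71.8 fasted, again higher on both fasted arrays but short of the threshold (0.23 ± 0.10, adjusted p = 0.341). The call with cholesterol was lost without any 1 of the 8 arrays (adjusted p = 0.0642 to 0.2). Among the zona pellucida genes that deprivation lowered, fed and fasted signals with cholesterol differed by -0.41 ± 0.14 for noah-1 (adjusted p = 0.134), by -0.59 ± 0.26 for noah-2 (adjusted p = 0.22) and by -0.60 ± 0.25 for fbn-1 (adjusted p = 0.199). None of these passed. The leucine-rich repeat gene let-4 was higher on both fasted arrays but did not pass (0.38 ± 0.10, adjusted p = 0.0762), nor did egg-6, whose fasted signals of 1243 and 2351 overlap the fed ones (-0.45 ± 0.29, adjusted p = 0.374). The dimmer second let-4 probe set had the other sign (-0.24 ± 0.12, adjusted p = 0.287). Without replicate 1 of the fasted worms with cholesterol, noah-2 was at -1.02 and passed (adjusted p = 0.0446).

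Without cholesterol, fasting raised 1 of the 43 genes, noah-1, and lowered none, where 1.07% of all genes rose and 2.09% fell. The noah-1 signals went from 166 and 145 in fed worms to 365 and 424 in fasted worms, by 1.34 ± 0.14 (adjusted p = 0.00272, 2.52-fold). Both fasted arrays were above both fed ones, but still below all 4 arrays of worms given cholesterol, which ranged from 573 to 847. The call held without each of the 8 arrays in turn. This comparison shares its 2 fed deprived arrays with the deprivation effect in fed worms, so low values there would enter both. The second noah-1 probe set, at 105 and 97.5 fed against 111 and 145 fasted, changed by 0.32 ± 0.16 and did not pass (adjusted p = 0.399). For lpr-3 the change was 1.17 ± 0.27 (adjusted p = 0.0777), and it was 1.60 and passed when fasted deprived replicate 1 was left out (adjusted p = 0.0146). For fbn-1 it was 0.72 ± 0.25 (adjusted p = 0.215) and for noah-2 0.11 ± 0.26 (adjusted p = 0.894). The second probe sets changed by 0.71 ± 0.26 for lpr-3 (adjusted p = 0.247) and, with the other sign, by -0.18 ± 0.16 for fbn-1 (adjusted p = 0.658).

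Averaged over both cholesterol states, fasting raised 2 of the 43 genes and lowered none, where 5.65% of all genes rose and 5.32% fell. These were noah-1 (0.47 ± 0.10, adjusted p = 0.0251) and cutl-14 (0.34 ± 0.07, adjusted p = 0.0252). The noah-1 average joins the change of -0.41 with cholesterol and that of 1.34 without it. The noah-1 call was lost without replicate 1 of the fasted worms with cholesterol, replicate 2 of either deprived group, or either fed array with cholesterol (adjusted p = 0.0684 to 0.0926). That of cutl-14 was lost without any 1 array but the fasted replicate 2 with cholesterol (adjusted p = 0.0612 to 0.0973).

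**Figure D4:**
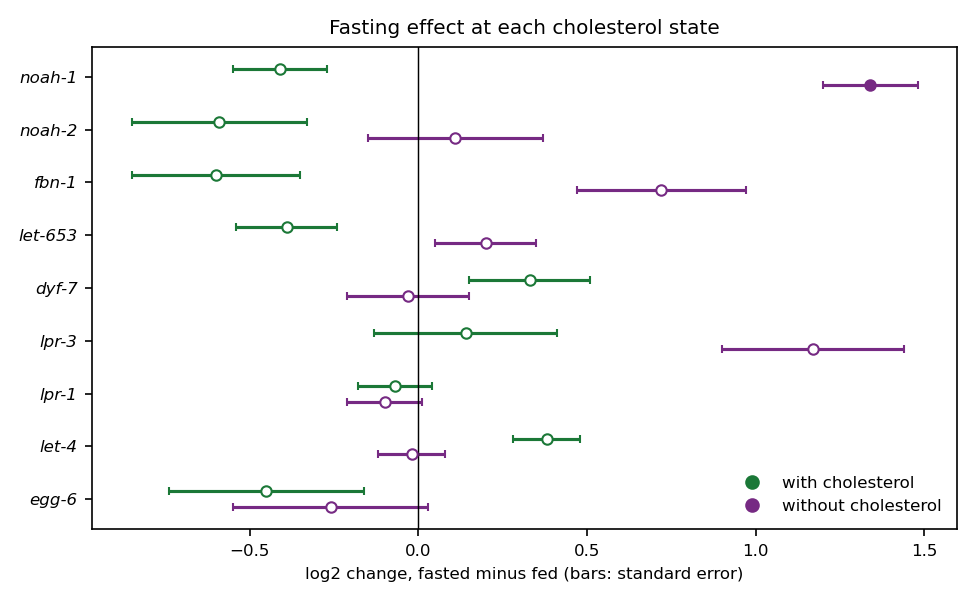
Log2 change from fed to fasted worms (points, with standard errors as bars) for the 9 genes added by name, with cholesterol (green) and without it (purple); a filled point marks an adjusted p under 0.05. The noah-1 points lie at -0.41 and 1.34, the only pair on this plot whose difference passed the interaction test.

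The fasting response of noah-1 differed between the cholesterol states on its brighter probe set. The interaction, the fasting effect without cholesterol minus that with it, was 1.74 ± 0.19 (adjusted p = 0.0395), and noah-1 was the 1 member that passed, where 0.0526% of all genes passed upwards and as many downwards. The noah-1 interaction did not pass when any 1 of the 8 arrays was left out (adjusted p = 0.097 to 0.213), with values of 1.61 to 1.87, and on the second probe set it was 0.43 ± 0.22 (adjusted p = 0.537). Interaction values of the same sign that did not pass were 1.31 ± 0.35 for fbn-1 (adjusted p = 0.412), 1.03 ± 0.39 for lpr-3 (adjusted p = 0.466), 0.70 ± 0.37 for noah-2 (adjusted p = 0.537) and 0.59 ± 0.21 for let-653 (adjusted p = 0.452). On the second probe sets the interaction was only 0.05 ± 0.22 for fbn-1 (adjusted p = 0.955) and 0.31 ± 0.37 for lpr-3 (adjusted p = 0.791). The opposite sign was seen for let-4, at -0.40 ± 0.14 (adjusted p = 0.453), but its dimmer second probe set gave 0.39 ± 0.17 (adjusted p = 0.487). The values of dyf-7 (-0.36 ± 0.25) and lpr-1 (-0.03 ± 0.16) were also below 0, and that of egg-6 was 0.19 ± 0.4. Among the 43 genes, noah-1 was thus the only one to pass this test, on 1 of its 2 probe sets. That the others did not pass does not show that their fasting responses were equal.

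Other matrix and epidermal genes were taken from lists of textbook knowledge, drawn up with earlier results of these data known, to set beside these. Of 9 further precuticle genes (lipocalins, leucine-rich repeat proteins and partners of zona pellucida proteins), deprivation in fed worms lowered 1 and raised 0. This was sym-1, a secreted leucine-rich repeat protein, with 213 and 197 in fed worms with cholesterol and 55.1 and 43.4 without it. The sym-1 groups did not overlap, and the change was -2.04 ± 0.23 (adjusted p = 0.0104). Of 13 measured collagens known from body shape or blister mutants, 2 fell and 0 rose. The collagen dpy-14 went from 411 and 428 to 67.1 and 55.6 (-2.76 ± 0.21, adjusted p = 0.0044), and dpy-17 from 644 and 641 to 283 and 258 (-1.25 ± 0.20, adjusted p = 0.0374). The other 11 of that list did not pass, nor did any of 5 furrow collagens (median change -0.03).

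Of 17 enzymes and inhibitors that process or cross-link cuticle proteins, 1 fell with deprivation in fed worms and 0 rose: the protease inhibitor gene mlt-11 (-0.66 ± 0.11, adjusted p = 0.0418). None of 13 moulting genes and none of 9 genes of the fibrous organelles that tie cuticle to muscle passed there. Of 19 regulators of epidermis and moulting, 1 fell and 0 rose, the transcriptional repressor gene blmp-1, from 154 and 137 to 73.1 and 71.5 (-1.0 ± 0.11, adjusted p = 0.00937). Fasting with cholesterol present lowered blmp-1 to 61.7 and 66.0 (-1.17 ± 0.11, adjusted p = 0.00131). It also raised the timing factor hbl-1 (0.78 ± 0.13, adjusted p = 0.0208) and the moulting regulator myrf-1 (0.48 ± 0.11, adjusted p = 0.0484). In that comparison fasting lowered the moulting gene mlt-3 (-1.02 ± 0.12, adjusted p = 0.00388), the collagen hydroxylase gene phy-2 (-0.84 ± 0.13, adjusted p = 0.0138) and the intermediate filament gene mua-6 (-1.12 ± 0.20, adjusted p = 0.0243). Among all genes, 2.18% rose and 3.24% fell there. Without cholesterol, mua-6 was the single gene of these 7 lists that passed (-1.17 ± 0.20, adjusted p = 0.0269), as a fall. In fasted worms, deprivation changed 0 genes of these lists past the threshold.

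On average over both feeding states, deprivation lowered sym-1 (-1.53 ± 0.16, adjusted p = 0.00422), dpy-14 (-1.96 ± 0.15, adjusted p = 0.00132), dpy-17 (-0.93 ± 0.14, adjusted p = 0.0159), mlt-11, phy-2 and blmp-1. Deprivation lowered 2.13% of all genes on average. The averaged fasting effect lowered 6 of the 13 body-shape collagens and raised 0, with dpy-13 at -1.20 ± 0.24 (adjusted p = 0.0214) and a list median of -0.38. Over all genes, 5.32% fell in that average.

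RNA of whole worms holds all tissues, and fewer cells of a type and less RNA per cell cannot be told apart in it. Since several of these genes are known from embryos, epidermis, glia, vulva and the excretory system, markers of those were read beside them. Of 13 measured zygotic embryo genes, 0 rose and 0 fell with deprivation in fed worms, with changes of -0.34 to 0.33 and a median of -0.16. Their summed signal, in which the brightest genes weigh most, was 4006 to 4063 with cholesterol and 4504 to 4630 without it. Of 19 oocyte and eggshell genes, 0 passed, with changes of -0.16 to 0.21 and sums of 105370 to 112179 with cholesterol and 108638 to 111158 without it. Of 4 seam cell markers 0 passed (median -0.15), though ceh-16 fell in the average over feeding states (-0.61 ± 0.08, adjusted p = 0.00992). Of 10 glial and 5 vulval markers 0 passed. Of 9 excretory markers 1 rose, the aquaporin gene aqp-8, from 79.7 and 95.1 to 216 and 162 (1.09 ± 0.16, adjusted p = 0.0271). In the average over feeding states 2 of the 9 excretory markers rose, aqp-8 (0.71 ± 0.11, adjusted p = 0.0195) and exc-5 (0.98 ± 0.18, adjusted p = 0.0311). Among all genes, 2.25% rose and 2.13% fell in that average. The mean signals of 8 of the 13 embryo markers lay below the median of all genes. The part of embryos and of tissue proportions in the changes of noah-1, noah-2, lpr-3 and fbn-1 was not tested.

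**Figure D5:**
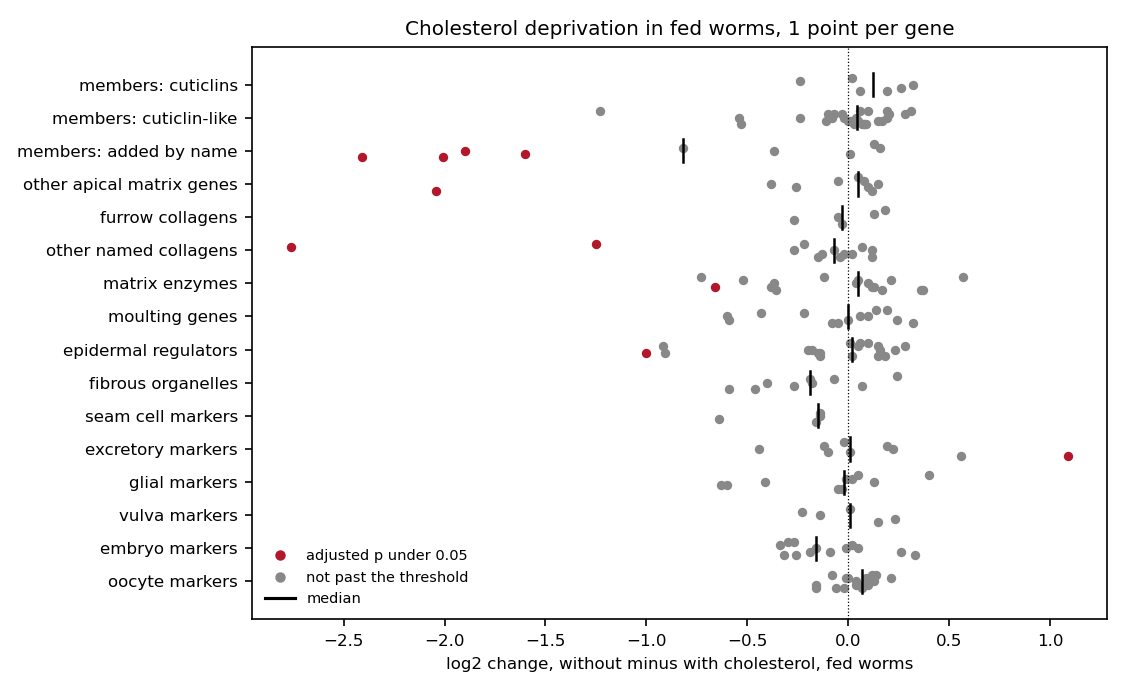
Log2 change with cholesterol deprivation in fed worms, 1 point per gene, for the 3 groups of members and 13 other lists, with medians as bars and red points for an adjusted p under 0.05. Most lists centre near 0, and the red points on the left are noah-1, lpr-3, fbn-1, noah-2, sym-1, dpy-14, dpy-17, mlt-11 and blmp-1.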

How the data were processed

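The deposited table gives 1 intensity per probe set and array for 8 arrays. The authors' intensities were normalised with RMA, per the submitters' processing notes, and the values lie on a linear scale. Its version was not given in the sources used here. Because RMA equalises the arrays' distributions, a difference in total RNA is not visible. The labels' protocols give 100 ng of total RNA per array.

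Of 22625 probe sets, 77 controls were left out. Of the 22548 tested, 20766 had 1 symbol, 887 several and 895 none. The 43 genes had 55 probe sets with 1 symbol, and each gene was found in the RefSeq table by its number. Values were taken as log2(signal + 1) and fitted by group means with limma 3.58.1 (R 4.3.3; 4 residual and 3.37 prior degrees of freedom), in 7 two-sided contrasts. The fit was tested on simulated data. Figures used matplotlib 3.10.9.

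The members and lists were chosen with earlier results of these data known. Values on every array were given for members past the threshold and for the 9 added by name, and of each other list up to 3 genes past the threshold per contrast with the smallest p. Of the other members the 3 brightest were named by this rule, and cutl-8, cutl-16, cutl-25, cut-1, cut-3 and cut-5 were named after their values were seen. Alternatives tried were a replicate block, normalisation by cyclic loess, a shift that equalised the medians of the brightest probe sets between arrays, leaving out the dimmest 40% of probe sets, a pseudocount of 16, the mean of all probe sets of a gene, and leaving out each array. The number of arrays limits the precision.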

Additional observations from a re-analysis of the deposited data

Results flagged for a closer look

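The fasting response of noah-1 differed between the cholesterol states by 1.74 on the log2 scale (± 0.19, adjusted p = 0.0395 by limma's interaction term), with signals that went from 847 and 813 to 685 and 573 with cholesterol and from 166 and 145 to 365 and 424 without it. It is given for a closer look because the difference between the groups was itself tested and passed, on 1 of the 2 noah-1 probe sets, and did not pass when any 1 of the 8 arrays was left out.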

How the results depend on the processing

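None of the 17 single-gene calls changed direction under up to 7 other settings or with an array left out. For these calls the replicate block, the dimmest probe sets left out and the repeated symbol counted as 1 keep the log2 change, so direction could not change there. The same holds for an array left out of a group outside the comparison. Of the 17, 5 held throughout: noah-1 for deprivation in fed worms, for fasting without cholesterol and for average deprivation, and let-4 and lpr-3 for average deprivation. With each array left out in turn, where the lone array of a group is assumed to vary like the others, the number of members past the threshold ranged from 0 to 1 for fasting with cholesterol (against 1), 1 to 2 for fasting without it (1), 1 to 3 for deprivation in fed worms (4), 0 to 1 in fasted worms (1), 0 to 0 for the interaction (1), 0 to 2 for average fasting (2) and 3 to 5 for average deprivation (7). With an array left out, the member for fasting with cholesterol was noah-2 as a fall (-1.02), never the main call of cutl-14. With the replicate block, which carries only a shared number in the labels, the counts were 3 for fasting with cholesterol, 3 for fasting without it and 2 for deprivation in fasted worms, adding cutl-6 and let-4, then fbn-1 (adjusted p = 0.0464) and lpr-3 (adjusted p = 0.0324), then noah-1 (adjusted p = 0.035). Replicate deviations correlated between groups at 0.218 to 0.53, each group's 2 arrays giving 1 deviation. Cyclic loess and leaving out the dimmest 40% each gave 0 for fasting with cholesterol, where cutl-14 did not pass (adjusted p = 0.0963 and 0.0716). The shift to an equal bright-set median gave 2 for fasting with cholesterol and 2 for fasting without it, adding let-4 (adjusted p = 0.0498) and lpr-3 (adjusted p = 0.046). A pseudocount of 16 gave 2 for deprivation in fed worms, without noah-2 (adjusted p = 0.0849) and lpr-3 (adjusted p = 0.0584), and 0 for the interaction. The mean of all probe sets gave 0 for the interaction and 1 for average fasting; noah-1, with 2 probe sets, was then at 1.08 and 0.28. For deprivation in fasted worms that mean kept the count at 1 with another gene, noah-1 (-0.79, adjusted p = 0.0477) in place of let-4 (-0.47, adjusted p = 0.104). Counting the repeated symbol as 1 gave 5 for deprivation in fed worms and 8 for average deprivation, adding cutl-8 to each. The cause of these changes was not tested. For let-653, deprivation in fed worms passed with the replicate block (adjusted p = 0.0148), cyclic loess (0.0398) and the mean of probe sets (0.043). Within replicate numbers 1 and 2, a split chosen after seeing the data, deprivation in fed worms was -2.34 and -2.48 for noah-1, -1.69 and -1.51 for noah-2, -1.54 and -2.25 for fbn-1 and -2.19 and -1.82 for lpr-3. Most cuticlin-like genes lay below the median signal, which limits what could be seen of them.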

Other observations

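The dimmer probe set of egg-6 followed the replicate number. It gave 462 and 839 in fed worms with cholesterol, 361 and 687 in fasted worms with it, 561 and 927 in fed worms without it and 376 and 778 in fasted worms without it, replicate 1 before replicate 2. The second replicate was higher in each of the 4 groups. The brighter egg-6 probe set was also higher in the second replicate of each group, and its spread was widest in fasted worms with cholesterol, at 1243 and 2351.

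For cutl-20, the brightest of its 4 probe sets lay between 189 and 216 on all arrays. A dimmer one gave 57.3 and 75.9 in fed worms with cholesterol and 40.4 to 53.3 on the other 6 arrays. Deprivation in fed worms changed that probe set by -0.66 ± 0.15 and did not pass (adjusted p = 0.108). The remaining ones changed by -0.67 ± 0.17 (adjusted p = 0.129) and -0.12 ± 0.11 (adjusted p = 0.688).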
